A study of Mus musculus with 2 samples.

Results

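The osteocalcin genes Bglap, Bglap2 and Bglap3 were followed across the epithelial cells of the adult mouse parotid gland. They are 3 of the 48825 genes in both count matrices, found by symbol. They were picked for expression already seen in these epithelial cells, so their levels are described here and not tested. Osteocalcin is the small vitamin K-dependent protein that osteoblasts secrete into bone matrix. Its glutamate residues are carboxylated in the secretory pathway, and RUNX2 and ATF4 drive its gene in osteoblasts. In the mouse the gene has been copied in tandem, and Bglap3, also called osteocalcin-related protein, is known for expression outside bone. In a salivary gland, acinar cells make the primary saliva, and intercalated ducts (ID) and then striated ducts (SD) carry and modify it.

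The glands came from wild-type C3H female mice. One group (IR) had received 6 Gy a day to the head and neck on 5 days, 30 Gy in total, at 6 to 10 weeks of age. The other group (control) was not irradiated, and both were collected at the time point 10 months after irradiation. Each group gave 1 single-cell RNA library of the 10x type that pooled 2 mice. No comparison between IR and control therefore has a replicate, and every interval below is a 95% interval for counting error that covers neither mice nor libraries.

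The matrices held 22707876 unique molecular identifiers (UMIs, one per captured RNA molecule) in the control matrix and 23890757 in that of IR. After filtering, 3378 control and 5286 IR cells remained, with medians of 2907.5 and 2461.5 UMIs. The libraries shared 12 barcodes, 3 of them among the kept cells. Cells were clustered with the osteocalcin genes left out, so that these genes did not shape the clusters. Named from fixed markers, the epithelial classes were acinar cells (388 control and 377 IR), Etv1+ secretory cells (265 and 261), ID cells (101 and 121) and SD cells (93 and 80), beside 18 and 22 myoepithelial cells (MECs). ID cells had 4 of their 5 markers at least 2 times above other cells, with Bpifb1 as the exception. SD cells had 5 of their 6, with Fxyd4 at 0 UMIs in both libraries.

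The copies lie head to tail on the minus strand of chromosome 3 (GRCm38). Bglap3 (ENSMUSG00000074489.9) spans 88368616 to 88372743, Bglap2 (ENSMUSG00000074486.2) 88377736 to 88378699 and Bglap (ENSMUSG00000074483.2) 88383501 to 88384464. No other annotated gene overlaps any of them. The last 400 bases of their transcripts, where this method reads RNA, were 99.5% identical between Bglap2 and Bglap. Bglap3 was 97.25% identical to Bglap2 and 96.75% to Bglap over the same stretch. Of all runs of 91 bases there, 67.7% of those in Bglap2 and 67.7% of those in Bglap also occur in the other gene, and 0% of those in Bglap3 occur elsewhere. For runs of 50 bases these shares were 86.0%, 83.2% and 25.2%. Cell Ranger does not count a read that fits more than 1 gene, so counts of Bglap2 and Bglap are low by an unknown amount and uncertain between these copies. For this reason no gene's level is ranked against another's, and the share of a gene in the family's UMIs is compared between classes and libraries, not read as a true proportion.

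The sequences before the start sites were searched for short runs of letters and not aligned, and none was available for Bglap2. The 250 bases before the annotated start of Bglap and before the first of 3 annotated starts of Bglap3 are printed here because these genes differed in where they were high (RefSeq, GRCm38.p6, minus strand). They cover chr3:88384467-88384716 and chr3:88372742-88372991. Capitals mark letters found in a search of both strands for ACCACA, the core that RUNX factors bind, and for TATAA, the core of the box that positions transcription starts. In Bglap3 the capitals hold TATAA on the same strand and, overlapping it, TATAA on the opposite strand.
Bglap: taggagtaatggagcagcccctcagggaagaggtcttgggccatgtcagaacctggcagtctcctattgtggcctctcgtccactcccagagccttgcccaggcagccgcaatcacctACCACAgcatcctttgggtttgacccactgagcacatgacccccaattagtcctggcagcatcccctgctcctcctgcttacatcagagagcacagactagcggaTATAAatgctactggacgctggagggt
Bglap3: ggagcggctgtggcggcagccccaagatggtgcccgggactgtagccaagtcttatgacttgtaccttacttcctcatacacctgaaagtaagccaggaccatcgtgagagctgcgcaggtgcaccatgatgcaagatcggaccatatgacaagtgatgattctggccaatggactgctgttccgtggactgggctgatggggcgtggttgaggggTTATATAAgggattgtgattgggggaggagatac
TATAA began 27 bases before the start in Bglap and 31 bases before it in Bglap3. ACCACA began 132 bases before the start in Bglap, and these letters are not in the Bglap3 window. Of 32851 promoter windows of this length, 22.8% held TATAA and 14.0% held ACCACA. The windows of the other Bglap3 starts held neither.

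Bglap3 reached its highest control level in ID cells, as counts per 1000000 UMIs of a class (CPM). ID cells held 355 Bglap3 UMIs in the control library, or 1119 CPM (1005 to 1241), and 569 in the IR library, or 945 CPM (869 to 1026). SD cells held 32 UMIs in the control, or 394 CPM (269 to 556), and 149 in the IR library, or 1020 CPM (863 to 1198). Etv1+ cells stood at 378 CPM (364 to 392) in control cells and 702 CPM (678 to 726) in IR cells. Acinar cells stood at 263 CPM (245 to 282) and 406 CPM (382 to 430). Per UMI of all genes, the control order was thus ID, then SD and Etv1+, then acinar cells, and the wide interval of SD cells overlaps those of both Etv1+ and acinar cells. On that scale SD and ID cells came first in the IR library with overlapping intervals, followed by Etv1+ and then acinar cells. The place of SD cells depended on the scale. With 64 abundant genes left out of the totals, control ID cells stood at 4738 CPM (4258 to 5257), Etv1+ cells at 1937 (1867 to 2009), acinar cells at 1888 (1758 to 2025) and SD cells, now last, at 656 (449 to 927). The IR values on that scale were 4638 CPM in ID cells (4264 to 5035), 3037 in Etv1+ (2935 to 3142), 2746 in SD (2323 to 3224) and 2444 in acinar cells (2302 to 2592). On this scale ID cells came first in both libraries, and their intervals overlapped no other class. In the control library ID cells had 4.26 times the CPM of acinar cells (3.75 to 4.84), 2.96 times that of Etv1+ cells (2.64 to 3.30) and 2.84 times that of SD cells (1.98 to 4.22). Without abundant genes these ratios were 2.51 (2.21 to 2.85), 2.45 (2.18 to 2.73) and 7.22 (5.02 to 10.7).

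Most Bglap3 molecules were nevertheless not in cells classed as duct. Etv1+ cells, with medians of 24190 and 5722 UMIs, held 65.8% of the Bglap3 UMIs of the control library and 58.4% of those in IR. ID cells held 8.15% and 9.96%, and SD cells 0.735% and 2.61%. These shares depend on the class borders. Of the Etv1+ UMIs, 878 in the control and 1027 in IR lay in a sub-cluster of 24 cells per library. At least 2 times above other cells it had 4 of 5 ID, 7 of 7 Etv1+ and 0 of 7 acinar markers. Another 856 control and 893 IR UMIs lay in a sub-cluster of 76 control and 51 IR cells. At that level it had 7 of 7 acinar and 2 of 7 Etv1+ markers. Without integration of the libraries, ID cells held 956 control and 1374 IR UMIs, and Etv1+ cells 2245 and 2601. "Duct" thus describes ID cells, where Bglap3 was highest per UMI in the control. It describes neither control SD cells (1.04 times Etv1+ cells, 0.711 to 1.47) nor the class where most of its UMIs were counted.

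**Figure D1:**
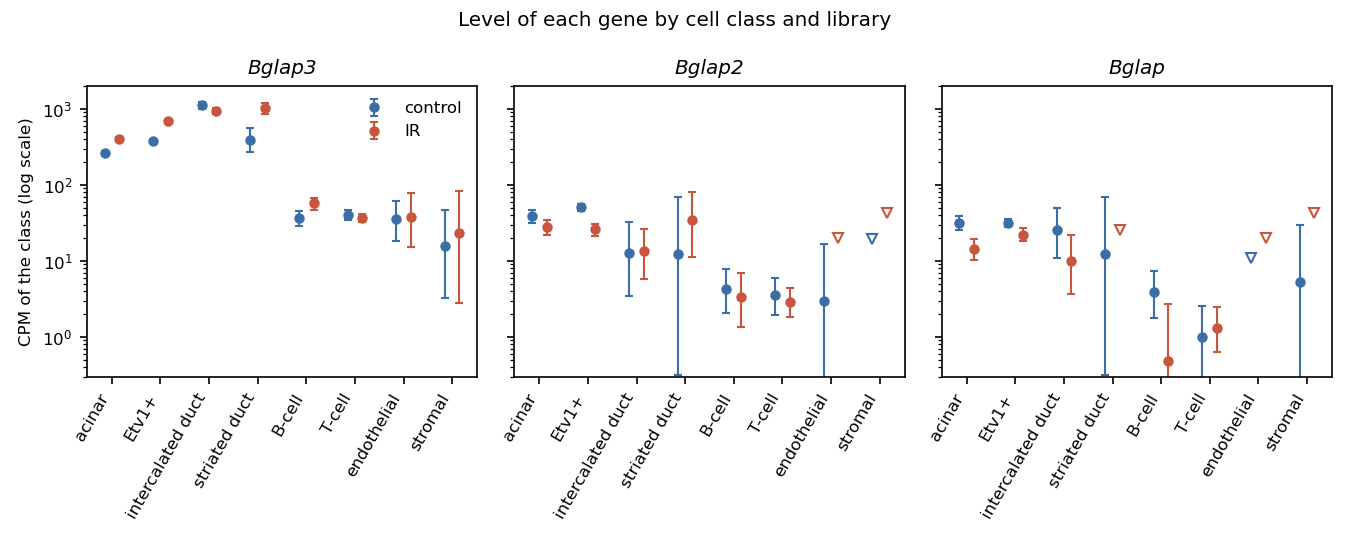
CPM of each gene (log axis) in 8 cell classes of the control (blue) and IR (red) library. Points are class sums, bars are 95% Poisson intervals, and open triangles are upper bounds where no UMI was counted. Bglap3 lay between 263 and 1119 CPM in acinar, Etv1+, ID and SD cells, and at 36.1 and 56.8 CPM in B-cells.

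Immune cells were taken as the background. B-cells held 84 Bglap3 UMIs in 838 control cells, or 36.1 CPM (28.8 to 44.8), and 118 in 833 IR cells, or 56.8 CPM (47.0 to 68.0). Per cell this is 0.100 and 0.142 UMIs, compared with 3.51 and 4.70 in ID cells, 10.8 and 12.8 in Etv1+ cells, 2.02 and 2.94 in acinar cells, and 0.344 and 1.86 in SD cells. In the control, CPM was 30.9 times the B-cell value in ID cells (24.3 to 39.7), 10.9 times in SD cells (7.01 to 16.5), 10.5 times in Etv1+ cells (8.42 to 13.2) and 7.26 times in acinar cells (5.79 to 9.21). Without abundant genes these were 116 in ID, 16.1 in SD, 47.5 in Etv1+ and 46.3 in acinar cells. With classes from marker gates they were 7.86, 2.65, 2.59 and 1.86. Of the 352 Bglap3 UMIs in the gated B-cells, however, 270 came from 2 cells that clustered as Etv1+. The share of free RNA can differ in shallower cells. Control SD cells had a median of 706 UMIs beside 2538.5 in control B-cells, and the part of this in their ratio was not tested. At least 2 times the B-cell CPM was reached by 3 of 3 members in control acinar cells, where 4.88% of 7854 genes reached it, and by 3 of 3 in Etv1+ cells, where 13.4% of 9645 did. Bglap3 had enough UMIs to be counted in ID cells (3.24% of 7232 genes) and SD cells (15.6% of 7170 genes), and reached it in both. In the IR library the same members reached it, beside 4.54%, 11.9%, 3.56% and 6.5% of genes in acinar, Etv1+, ID and SD cells. No member with enough UMIs was 2 times lower than in B-cells, where 52.2% (SD) to 86.2% (acinar) of control genes were. As the genes were picked for epithelial expression, nothing is read from these counts.

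The share of cells with a Bglap3 UMI depends on depth, so each cell was also thinned to 1000 UMIs. In ID cells, 66 of 101 control cells (65.3%, 55.2 to 74.5) and 94 of 121 IR cells (77.7%, 69.2 to 84.8) had at least 1 UMI. After thinning, shares in control and IR cells were 43.1% and 52.2% in ID cells, 18.2% and 33.8% in Etv1+ cells, 18.1% and 23.0% in acinar cells, and 3.52% and 6.30% in B-cells. SD cells had fewer UMIs (medians of 706 and 1988.5) and were thinned to 500. Their share was 14.0% in the control (7.66 to 22.7) and 37.5% in the IR library (26.9 to 49.0), compared with 0.955% and 3.0% in B-cells at that depth. Each of these epithelial shares lay above the B-cell share of the same library.

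Within acinar and Etv1+ cells, Bglap3 was very uneven from cell to cell. Among acinar cells, 214 of 388 control cells and 206 of 377 IR cells had none, while the highest cells had 69 and 82 UMIs. If UMIs had fallen on cells by depth alone, about 268 control and 303 IR cells would have carried one, where 174 and 171 did. The tenth of acinar cells with the most UMIs held 65.2% of them in control cells and 71.2% in IR cells. In Etv1+ cells the range was 0 to 252 UMIs in control cells and 0 to 175 in IR cells, with 128 and 110 cells at 0 and 57 and 53 cells at 10 or more. Dispersion, the mean squared deviation from the depth-based value divided by that value, was 7.46 and 12.9 in acinar cells, where the median gene with at least 100 UMIs had 1.30 and 1.34. Bglap3 was thus more dispersed than 92.7% of 558 and 94.9% of 625 such genes. In Etv1+ cells its dispersion of 35.6 and 27.5 exceeded that of 97.5% and 97.7% of such genes. This measure can rise with a gene's level, and the genes were not matched for level. The part of level in these ranks was not tested. The counting intervals do not cover the spread of Bglap3 over cells, so a few cells carry much weight in a class sum.

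In ID cells Bglap3 was less far from other genes in the control, with a dispersion of 4.10 beside a gene median of 3.52 (above 63.6% of 132 genes) and 66 carriers where depth gives 75.4. In IR ID cells the dispersion was 14.6 beside 2.69 (above 93.6% of 204 genes), with 94 carriers where depth gives 100.7. In SD cells of the IR library, by contrast, no cell stood far above the others. There, 54 of 80 cells carried Bglap3, near the 61.6 that depth alone gives, no cell had more than 6 UMIs, and its dispersion was 1.22. Groups of these cells still differed. The 48 cells with over 5% of UMIs from Dcpp1, Dcpp2 and Dcpp3 held 135 Bglap3 UMIs (1211 CPM), and the other 32 held 14 (405 CPM). In MECs, 54 of the 56 IR UMIs came from 1 cell, so no level is given for that class.

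**Figure D2:**
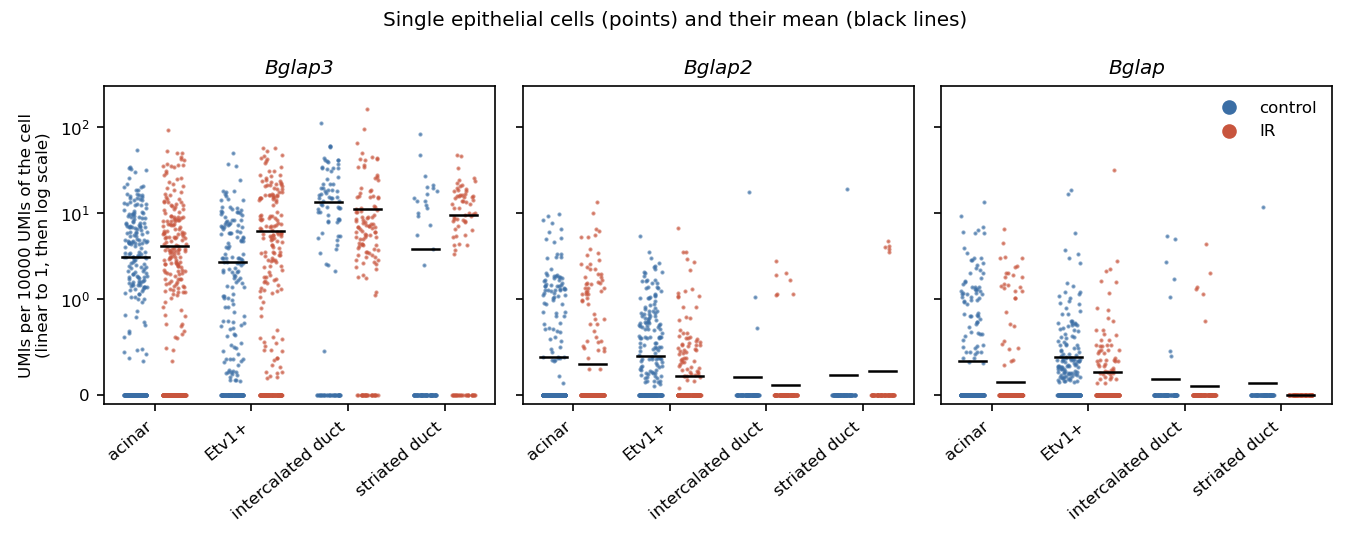
Each point is 1 epithelial cell of the control (blue) or IR (red) library, placed by its UMIs of the gene per 10000 UMIs of the cell (linear up to 1, then log), and black lines are means over cells. Bglap3 was absent from 214 of 388 control acinar cells, while other cells of that class had up to 69 UMIs.

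Bglap2 and Bglap, the copies that encode osteocalcin proper, followed another pattern. Bglap2 was highest in secretory cells of the control library, with 383 UMIs or 50.5 CPM (45.6 to 55.8) in Etv1+ cells and 115 UMIs or 38.5 CPM (31.8 to 46.2) in acinar cells. Control ID cells held 4 Bglap2 UMIs, or 12.6 CPM (3.43 to 32.3), and SD cells 1. Bglap stood at 31.4 CPM in control Etv1+ cells (238 UMIs, 27.5 to 35.6) and 31.4 CPM in acinar cells (94 UMIs, 25.4 to 38.5), and its 8 UMIs in ID cells gave 25.2 CPM (10.9 to 49.7). ID cells thus had 0.328 times the Bglap2 CPM of acinar cells (0.0878 to 0.862), where the same ratio for Bglap3 was 4.26. For Bglap this ratio was 0.802 (0.336 to 1.65), an interval that spans no difference. In B-cells Bglap2 was at 4.30 CPM and Bglap at 3.87 CPM in the control, from 10 and 9 UMIs.

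The makeup of the family therefore differed between classes. Bglap3 was 79.0% of the UMIs of the 3 genes in control acinar cells (76.3 to 81.5) and 82.2% in Etv1+ cells (80.9 to 83.5), but 96.7% in ID cells (94.4 to 98.3). Control B-cells stood at 81.6% (72.7 to 88.5) and control T-cells, with 162 of 180 UMIs, at 90% (84.7 to 94.0).

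Bglap2 and Bglap were spread over acinar cells nearly as depth alone would place them. In control acinar cells 83 cells carried Bglap2, where depth gives 88.4, and 74 carried Bglap, where depth gives 75.3. In control Etv1+ cells 129 carried Bglap2, where depth gives 150.4, and 115 carried Bglap, where depth gives 123.9. The highest epithelial cell had 15 Bglap2 and 8 Bglap UMIs. It was then asked whether cells rich in Bglap3 also held more of the other copies. Among control acinar cells with at least 3000 UMIs, Bglap2 stood at 41.6 CPM in the 59 cells with at least 4 Bglap3 UMIs per 10000 and at 40.8 CPM in the 135 cells without Bglap3 (ratio 1.02, 0.600 to 1.69). In IR acinar cells the same comparison gave 34.8 and 15.9 CPM, from 22 and 18 UMIs (ratio 2.20, 1.12 to 4.35). Among Etv1+ cells outside the sub-cluster poor in secretory RNA, Bglap2 was 42.1 and 46.7 CPM in the control and 24.9 and 32.4 CPM in the IR library. For Bglap in the same Etv1+ cells the control gave 35.2 and 19.7 CPM (ratio 1.79, 1.2 to 2.71) and the IR library 26.5 and 24.0 CPM (1.10, 0.647 to 1.95). No copy thus differed the same way in both libraries beyond its counting interval. These cells were chosen on Bglap3, and its own values in them are not a result.

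The next question was how each gene differed between the IR and control libraries, 10 months after irradiation. In acinar and Etv1+ cells Bglap3 was higher and both Bglap2 and Bglap were lower in the IR library. Bglap3 in acinar cells went from 785 UMIs (263 CPM) in the control to 1107 UMIs (406 CPM) in the IR library, a ratio of 1.55 (1.41 to 1.70). In Etv1+ cells it went from 2867 UMIs (378 CPM) to 3333 UMIs (702 CPM), a ratio of 1.86 (1.77 to 1.95). Beside this, the median depth of Etv1+ cells went from 24190 to 5722 UMIs. Their Etv1+ markers went from 0.180% to 0.269% of UMIs (7 of 7 genes higher), ID markers from 2.68% to 3.8% (3 of 5) and acinar markers from 58.4% to 53.3% (4 of 7 higher), and the part of these in the ratio was not tested. Among genes whose control and IR sums together reached 20 UMIs, the median log2 ratio was 0.30 in acinar cells (4334 genes) and 0.26 in Etv1+ cells (8760 genes). Bglap3, at 0.63 and 0.89, lay above 75.4% and 91.04% of these genes. In B-cells the IR library was also higher for Bglap3, by 1.57 times (1.18 to 2.10), a ratio close to that of acinar cells, and over all immune cells by 1.07 times (0.915 to 1.25).

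Bglap2 in acinar cells went from 38.5 to 27.5 CPM (115 to 75 UMIs, ratio 0.715, 0.527 to 0.964). In Etv1+ cells it went from 50.5 to 25.9 CPM (383 to 123 UMIs, ratio 0.513, 0.415 to 0.630). Bglap went from 31.4 to 14.3 CPM in acinar cells (94 to 39 UMIs, ratio 0.455, 0.305 to 0.667) and from 31.4 to 22.1 CPM in Etv1+ cells (238 to 105 UMIs, ratio 0.704, 0.554 to 0.890). These values put Bglap2 above 6.37% and 1.59% of the genes compared, and Bglap above 0.946% and 5.81%. At least 2 times lower in the IR library was 1 of 3 members in acinar cells, Bglap, where 1.43% of genes were, and 0 of 3 in Etv1+ cells, where 1.42% were. No member was at least 2 times higher in either class, where 9.58% and 6.16% of genes were. Bglap3 accordingly made up 90.7% of the family's UMIs in IR acinar cells (88.9 to 92.2) and 93.6% in IR Etv1+ cells (92.7 to 94.4). The same share was 93.7% in IR B-cells (87.9 to 97.2) and 89.7% in IR T-cells (85.8 to 92.9).

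The higher Bglap3 level was present in each sub-cluster of the Etv1+ cells. A sub-cluster of 62 control and 85 IR cells with little secretory RNA (median of 1004 UMIs) held 9 and 40 Bglap3 UMIs, or 111 and 373 CPM, a ratio of 3.37 (1.61 to 7.89). In the other sub-clusters the ratios were 2.14 (1.94 to 2.35), 1.86 (1.71 to 2.03), 1.5 (1.22 to 1.86) and 1.36 (1.24 to 1.49). The last of these, 24 cells of each library led by Sftpd, Msln and Ltf, had the highest Bglap3 of the Etv1+ cells, at 822 CPM in control cells (769 to 879) and 1119 CPM in IR cells (1052 to 1190). It also had the most Dcpp1, a secretory gene that marks ID cells, at 177736 and 182310 CPM, and at least 2 times above other cells it had 4 of the 5 ID, 7 of the 7 MEC, 7 of the 7 Etv1+ and 0 of the 7 acinar markers. Its Bglap2 was 35.6 and 22.9 CPM. Contents of the other sub-clusters also differed between libraries. In the one poor in secretory RNA, Dcpp1 went from 8063 to 48506 CPM and Etv1 from 2441 to 1475 CPM. In those with ratios of 2.14, 1.86 and 1.5, Dcpp1 went from 183 to 492, from 1627 to 801 and from 3934 to 6962 CPM. The part of these in the ratios was not tested. Among 7 acinar sub-clusters the Bglap3 ratio was above 1 in 6, from 1.17 (0.817 to 1.66) to 1.79 (1.51 to 2.14), and 0.653 (0.383 to 1.11) in the other.

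**Figure D3:**
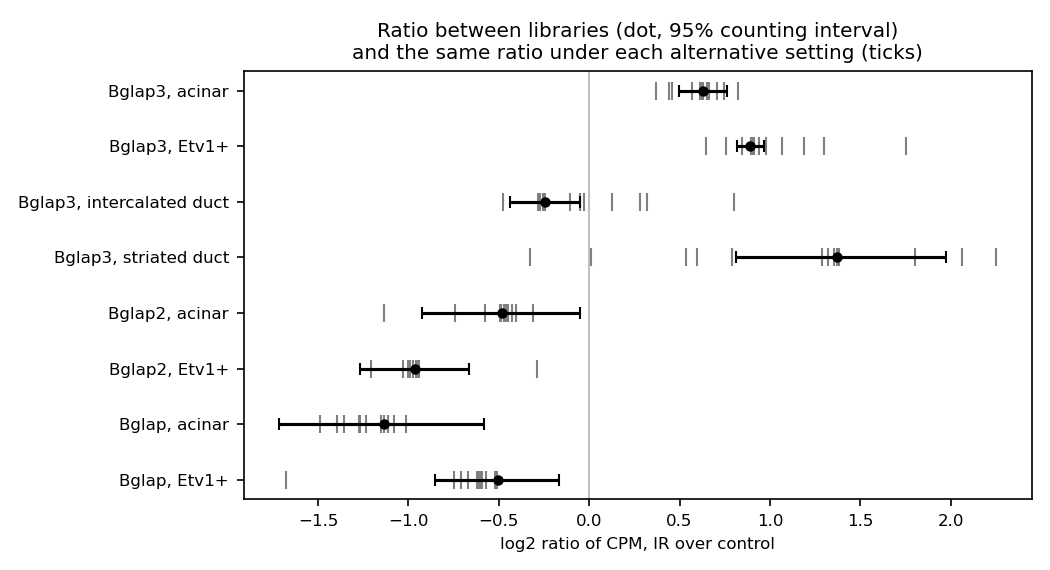
Dots are log2 ratios of CPM in the IR over the control library, bars their 95% counting intervals, and grey ticks the same ratio under each alternative setting. Bglap3 lies to the right of 0 and Bglap2 and Bglap to the left in acinar and Etv1+ cells under every setting shown, while the ticks of both duct classes for Bglap3 fall on both sides.

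In ID cells the summed Bglap3 level was lower in the IR library, with a ratio of 0.845 (0.738 to 0.967). This direction turned under 4 of 12 alternatives, while without the 5 highest cells of each library the ratio was 0.719. Beside this ratio, the 5 ID markers went from 41.3% to 27.2% of the UMIs of ID cells (2 of 5 genes higher). Single cells ranged from 0.0347% to 91.6% in the control and from 0.187% to 79.8% in the IR library. The 7 acinar markers went from 27.9% to 38.6% (6 of 7 higher) and median depth from 1265 to 4960 UMIs, and their part in the ratio was not tested. Dcpp2, Dcpp3, Scgb2b2 and Scgb1b2 led a sub-cluster of 58 control and 27 IR cells. In it Bglap3 went from 301 UMIs (1256 CPM, 1118 to 1407) to 264 UMIs (2510 CPM, 2216 to 2831). The ratio was 2.0 (1.69 to 2.36), but few cells carried much of it. The 5 highest ID cells of each library all lay here, with 135 control and 197 IR UMIs. Bglap3 was carried by 41 of 58 control cells (70.7%) and 19 of 27 IR cells (70.4%). A sub-cluster of 38 and 32 shallow cells led by Cryab and Arg1 had 1297 and 1062 CPM, a ratio of 0.819 (0.499 to 1.33). The third, led by Bricd5, Dcpp1, Cxcl17 and Pglyrp1, held 5 control and 62 IR cells. Its Bglap3 was 247 CPM in control cells (123 to 441) and 586 CPM in IR cells (518 to 659). Nearly every IR cell of this sub-cluster carried Bglap3, 60 of 62, at a median of 7350 UMIs. After thinning to 1000 UMIs the share was 52.5%, beside 54.5% in IR cells of the Dcpp2-led sub-cluster. Without the Bricd5-led sub-cluster the ID ratio turned to 1.74, on the other side of 1. The ID ratio also turned with thinned cells, with at least 500 genes per cell and with no limit on mitochondrial UMIs. Under the last 2 settings the ID class held other cells too. Its control UMIs were 909 and 1101, with up to 189 in 1 cell, beside 355 and 45 in the main clustering. Its IR UMIs were 1379 and 1426, with up to 175 in 1 cell, beside 569 and 59. In the main clustering the cells with 189 and 175 UMIs lay in the Sftpd-led sub-cluster of Etv1+ cells. Bglap3 was 1 of 1 member with enough UMIs in ID cells and was neither 2 times higher (7.76% of 1508 genes) nor 2 times lower (9.08%). Bglap2 had 4 and 8 UMIs and Bglap 8 and 6 UMIs, too few to compare.

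SD cells showed the largest ratio of the 4 classes, 2.59 (1.76 to 3.92), and here at least 2 times higher was 1 of 1 member with enough UMIs, where 5.85% of 872 genes were and 43.2% were at least 2 times lower. The median log2 ratio of those genes was -0.78. Most Bglap3 UMIs of IR SD cells lay in cells that also carried ID RNA. SD cells whose UMIs were at most 5% from Dcpp1, Dcpp2 and Dcpp3 were 91 control and 32 IR cells. Their Bglap3 was 402 CPM (275 to 568) and 405 CPM (221 to 680), from 32 and 14 UMIs. The log2 ratio of 0.010 had a wide interval of -1.01 to 0.96. SD cells over 5% numbered 2 and 48. The 48 IR cells held 135 of the 149 Bglap3 UMIs, at 1211 CPM (1015 to 1433), and had a median of 2331 UMIs.

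The whole ID marker list moved with Bglap3 in SD cells. All 5 of its genes were higher in the IR library, and their sum went from 1.23% to 7.19% of UMIs, with cells ranging from 0.0756% to 6.82% in the control and from 0.0841% to 23.2% in the IR library. Dcpp1 went from 11653 to 64576 CPM and Pglyrp1, an antibacterial protein, from 49.2 to 602 CPM. The SD markers went the other way in sum, from 6.75% to 1.69% of UMIs, with 2 of 6 genes higher in the IR library, and Klk1, a kallikrein of striated ducts, from 45023 to 9502 CPM. The acinar markers went from 22.5% to 41.2%, with 4 of 7 genes higher. Of the 80 IR cells, 48 lay in 1 sub-cluster that held 3 control cells. At least 2 times above other cells it had 5 of 5 ID, 5 of 6 SD and 0 of 7 acinar markers. Without it Bglap3 was 22 UMIs in 32 IR cells and 30 in 90 control cells, a ratio of 1.73 with an interval on the log2 scale of -0.07 to 1.63. When cells in the top 6% of doublet scores were dropped, 77 IR cells and a ratio of 2.44 remained. The scoring called 1 of 5286 IR cells a doublet and did not work on that library. It therefore cannot decide whether doublets are among these cells. With up to 10% mitochondrial UMIs allowed the ratio turned to 0.796, where 79 of the 133 control UMIs came from 1 cell. The part of these markers in the Bglap3 difference was not tested.

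**Figure D4:**
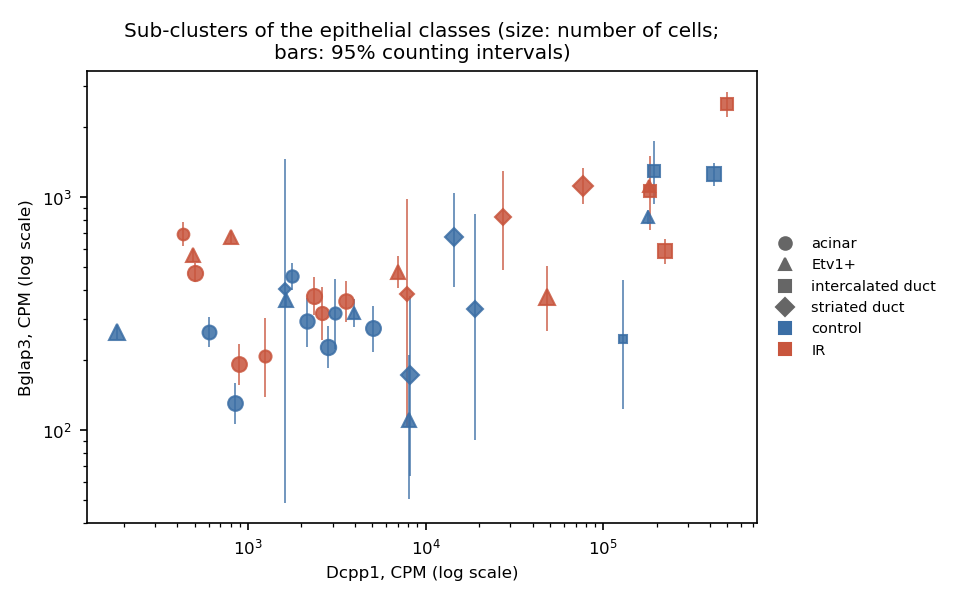
Each symbol is 1 sub-cluster of an epithelial class in the control (blue) or IR (red) library, placed by its Dcpp1 and Bglap3 CPM (both log axes), with 95% intervals for Bglap3. The ID sub-cluster with the most Dcpp1 in the IR library had the highest Bglap3, 2510 CPM, where 5 cells held 197 of 264 UMIs. Among acinar sub-clusters Bglap3 varied between 131 and 696 CPM at low Dcpp1.

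The genes whose class levels ran most like Bglap3 were found by Pearson correlation of log2(CPM + 1) over 30 sums of a class and library, among 10405 genes with at least 100 UMIs. The sums share 2 libraries and their free RNA, so the values are a description. They also include non-epithelial classes, so r partly reflects the contrast of epithelial with other cells, for which the osteocalcin genes were picked. The keratin genes of simple epithelia came first, Krt18 (r = 0.94) and Krt8 (r = 0.89), both also on the Etv1+ marker list. The third was Paqr6 (r = 0.89), a membrane progestin receptor gene that is also the next annotated gene to Bglap3, ending 74 bases from it on the opposite strand. The next 7 genes had r between 0.85 and 0.87 and were 2310057J18Rik, Bpifa2, Prb1, Chia1, Dnase1, Fxyd3 and Pip. Within the epithelium the match was partial. In control ID cells Krt18 and Krt8 were higher than in control acinar cells, as Bglap3 was. Fxyd3 was close, at 284 CPM in ID and 248 CPM in acinar cells. Paqr6 stood at 12.6 CPM in ID and 10.0 CPM in acinar cells, from 4 and 30 UMIs, which is too few to read a difference. The rest of these 10 genes were lower in control ID cells, with Bpifa2 at 203142 CPM beside 440951 in acinar cells. Paqr6 did not share the IR difference of Bglap3. It stood at 10.0 and 9.53 CPM in acinar cells and at 16.2 and 12.8 CPM in Etv1+ cells (ratio 0.792, 0.573 to 1.08).

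The genes most like Bglap2 were led by Gjb1 (r = 0.84), a gap junction gene, BC037156 (r = 0.84) and Derl3 (r = 0.84), which acts in disposal of misfolded secretory proteins. Cst10, Bpifa2, Crisp1, Cldn22, Ggh, Pip and Amy1 made up the other 7. Bpifa2 and Pip, abundant acinar secretions, thus stood among the 10 genes of both lists, and the keratins in that of Bglap3 alone.

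Of the 11 protein-coding genes within 100 kb of the cluster, 8 had at least 20 UMIs in an epithelial class. In acinar cells 0 of the 5 genes that could be compared differed 2 times between libraries, and in Etv1+ cells 0 of 9, where 9.58% and 6.16% of all genes were higher and 1.43% and 1.42% lower. Their median log2 ratio was 0.43 and 0.23, near the 0.30 and 0.26 of all genes. Lmna, which encodes lamin A and C, was higher in the IR library in acinar (ratio 1.66, 1.24 to 2.24) and Etv1+ cells (1.80, 1.60 to 2.03), and was the 1 of 3 comparable neighbours at least 2 times higher in ID cells (2.21, 1.36 to 3.74), where 7.76% of genes were. In B-cells it was lower (0.489, 0.414 to 0.577). Cct3 in Etv1+ cells gave 1.61 (1.2 to 2.17) and Smg5 1.85 (1.17 to 2.93). Glmp (1.05), Pmf1 (1.18), Sema4a (1.27) and Tmem79 (0.690) had intervals in Etv1+ cells that span 1.

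Of the genes that serve osteocalcin's modification, all but Furin were counted at low level. At least 2 times the control B-cell CPM was reached by 0 of 4 comparable genes in acinar, 1 of 4 in Etv1+, 0 of 4 in ID and 2 of 4 in SD cells. Of all genes 4.88%, 13.4%, 3.24% and 15.6% reached it. The gene in Etv1+ cells was Furin. Those in SD cells were Calu and Furin, with 4 UMIs each there beside 43 and 36 in B-cells, so both rest on few molecules. In control B-cells Vkorc1 stood at 12.5, Vkorc1l1 at 13.8 and Calu at 18.5 CPM, beside 12.1, 4.22 and 12.4 in Etv1+ cells. Furin stood at 15.5 CPM in those B-cells. Ggcx, the carboxylase itself, had 12 control and 17 IR UMIs in Etv1+ cells and at most 2 in any other epithelial class sum. Its ratio of 2.26 (1.02 to 5.19) made it the 1 of 5 genes of this list at least 2 times higher in Etv1+ cells, where 6.16% of all genes tested were, and it is named after its values were seen. Vkorc1, which recycles vitamin K for it, stood at 12.1 and 17.9 CPM in Etv1+ cells (ratio 1.48, 1.09 to 2.0) and at 9.36 and 10.3 CPM in acinar cells. Its relative Vkorc1l1 gave 1.65 (0.981 to 2.77) and Calu, which encodes an inhibitor of the carboxylase, 1.53 (1.13 to 2.06) in Etv1+ cells. Furin, a protease that trims pro-proteins, was 85.6 and 83.8 CPM there, and in ID cells went from 4 to 37 UMIs, a ratio of 4.87 (1.75 to 18.8). It was the 1 of 1 comparable gene of the list at least 2 times higher in ID cells, where 7.76% of 1508 genes were. Beside this, median depth of ID cells went from 1265 to 4960 UMIs, and 1 sub-cluster held 5 control and 62 IR cells. Their part in the ratio was not tested.

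Of the 14 genes for other Gla proteins, 2 had at least 20 UMIs in an epithelial class. Gas6, a ligand of TAM receptors, stood at 8.71 and 12.6 CPM in Etv1+ cells (ratio 1.45, 1.01 to 2.09). Prrg2 stood at 8.57 and 10.7 CPM (ratio 1.25, 0.851 to 1.84). The osteocalcin receptor genes Gprc6a and Gpr158 had 0 UMIs in all kept cells of both libraries, which at this depth does not show that they are absent.

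Among 11 genes for transcription factors known to act on the osteocalcin gene, 3 had at least 20 UMIs in an epithelial class. Atf4 was higher in the IR library in acinar (48.5 to 90.9 CPM, ratio 1.87, 1.52 to 2.32), Etv1+ (1.48, 1.33 to 1.65) and ID cells (1.75, 1.16 to 2.71). The ratio was 0.835 (0.443 to 1.61) in SD cells and 1.11 (1.01 to 1.21) in B-cells, where control Atf4 stood at 435 CPM. Against control B-cells, 0 of 5 comparable genes of the list were 2 times higher in acinar or Etv1+ cells, where 4.88% and 13.4% of all genes were. At least 2 times lower were 5 of 5 and 4 of 5, where 86.2% and 68.7% of all genes were. Cebpb gave 1.32 (1.08 to 1.63) in acinar, 1.41 (1.26 to 1.57) in Etv1+ and 1.72 (1.52 to 1.96) in B-cells. Runx1 gave 1.79 (1.30 to 2.47) in Etv1+ cells. Runx2, named after its values were seen, had 8 and 14 UMIs in Etv1+ cells and at most 3 in any other epithelial sum. Its ratio of 2.79 (1.09 to 7.69) made it the 1 of 5 comparable genes of the list at least 2 times higher in Etv1+ cells, beside the 6.16% of all genes. The osteoblast genes Sp7, Ibsp and Mepe had 0 UMIs in all kept cells, and Dmp1 and Phex at most 1 in each library. Of the 9 bone matrix and osteoblast genes, Sparc alone had at least 20 UMIs in an epithelial class, at 2.90 and 8.21 CPM in Etv1+ cells (ratio 2.83, 1.64 to 5.01). It was the 1 of 1 comparable gene of that list at least 2 times higher there, beside 6.16% of all genes. The highest epithelial class sum was 8 UMIs for Alpl, 5 for Spp1, 1 for Col1a1 and 0 for Pth1r. The 5 Spp1 UMIs lay in control SD cells, at 61.5 CPM. The osteocalcin genes were thus counted in epithelial cells where Sp7, Ibsp, Mepe, Dmp1 and Phex were at or near 0.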

How the data were processed

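The deposited files were 1 matrix of raw UMI counts per library, which the authors made with Cell Ranger 3.0.1 on the mm10 genome and analysed in Seurat 3, per the submitters' processing notes. Counts were used as deposited. A barcode was kept if it had 200 genes or more and no more than 5% mitochondrial UMIs. Integration and clustering used Seurat 5.3.0 under R 4.3.3 (2000 variable genes without the osteocalcin genes, 30 components, resolution 0.4, sub-clusters 20 components and resolution 0.8). A cluster took a class name when at least 3 markers of that class were at least 2 times above other cells. Names were rebuilt here and can differ from those of the study. Scrublet called 1 of 5286 IR and 32 of 3378 control cells doublets, so it did not work on the IR library, and no cell was removed as a doublet in the values reported. The 6% of cells with the highest scores were left out as an alternative.

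UMIs were summed per class and library. Poisson intervals for levels, Clopper-Pearson intervals for shares and conditional binomial intervals for ratios were computed with scipy 1.17.1 at 95% and cover counting error only. The ratio intervals alone were checked, on simulated Poisson counts. Such counts lack the uneven spread of Bglap3 over cells, so the check does not extend to it. With 1 library a group there was no test and no p-value. A gene was called by size alone, at 2 times or more with at least 20 UMIs over both sums. The genes named were the members, listed pathway genes with at least 20 UMIs in an epithelial class, duct markers and the 10 genes most like Bglap3 or Bglap2. Listed genes under 20 UMIs were named after their values were seen, where they were called, at or near 0, or on the bone matrix and osteoblast list. Sub-clusters were named by their leading genes. The members and lists were chosen with earlier results of these data known. Promoter sequences were taken from RefSeq.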

Additional observations from a re-analysis of the deposited data

Results flagged for a closer look

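The ratio of Bglap3 CPM in the IR over the control library lay on opposite sides of 1 in different classes. It was 1.55 in acinar, 1.86 in Etv1+ and 2.59 in SD cells, but 0.845 in ID cells. The ID ratio turned to 1.09, 1.22, 1.25 and 1.74 under 4 of 12 alternatives, and was 2.0 in the ID sub-cluster led by Dcpp2. In that sub-cluster 5 cells held 197 of the 264 IR UMIs. For 1.09 and 1.22 the ID class held cells of up to 189 control and 175 IR UMIs, beside 45 and 59 in the main clustering. The SD ratio turned to 0.796 under 1 of 13. The difference between classes was not tested, because each group was 1 library.

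Barcodes that the filters left out also held Bglap3. Those with under 200 genes held 206 control and 153 IR UMIs, or 127 and 183 CPM. Those with at least 200 genes but over 5% mitochondrial UMIs held 552 and 619 UMIs, or 274 and 229 CPM. Kept B-cells, taken as the background, stood at 36.1 and 56.8 CPM.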

How the results depend on the processing

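Of 138 alternative values over 12 results, 133 kept their direction and 5 took the opposite one. Cells weighted equally, removal of the 5 highest cells, removal of a sub-cluster and every alternative for Bglap2 and Bglap were chosen after seeing the data. Bglap2 and Bglap stayed lower in the IR library in acinar and Etv1+ cells under each alternative run, and Bglap3 stayed higher there. All values below are log2 ratios, and causes were not tested unless a count is given.

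For Bglap3 in the IR over the control library, leaving 64 abundant genes out of the totals gave 0.37 in acinar, 0.65 in Etv1+, -0.031 in ID and 2.06 in SD cells. This scaling moves all genes of a class by one amount and leaves their ranks as they were. Classes from marker gates gave 0.83 in acinar, 0.76 in Etv1+ and 0.59 in SD cells. The gated SD value had an interval of -0.58 to 1.68, from 11 UMIs in 19 IR cells and 24 UMIs in 75 control cells. Thinned cells gave 1.30 in Etv1+ and 0.32 in ID cells. Cells weighted equally gave 0.44 in acinar and 1.19 in Etv1+ cells. Without the 5 highest cells of each library the values were 0.46, 1.07, -0.48 and 2.25 in acinar, Etv1+, ID and SD cells. Etv1+ cells poor in secretory RNA gave 1.75, and Etv1+ cells without the Sftpd sub-cluster 0.98. ID cells gave 0.12 with no mitochondrial limit, 0.28 with at least 500 genes and 0.80 without the mostly IR sub-cluster. Under the first 2 of these settings the ID class also held cells of up to 189 control and 175 IR UMIs. SD cells gave -0.33 with up to 10% mitochondrial UMIs, 0.54 with no such limit, 0.010 without cells over 5% Dcpp UMIs and 0.79 without the mostly IR sub-cluster.

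Over B-cells in the control, leaving out abundant genes gave 5.53 in acinar, 5.57 in Etv1+, 6.86 in ID and 4.01 in SD cells, which put SD cells last. Gates gave 0.90, 1.37 and 2.98 there and 1.40 in SD cells, where 2 Etv1+ cells held 270 of the 352 Bglap3 UMIs of the gated B-cells. Thinned cells gave 2.52, 2.98 and 5.41. Up to 10% mitochondrial UMIs gave 2.91 in Etv1+ and 4.79 in SD cells, and no such limit 2.92 in Etv1+ cells. Thinned cells gave -1.14 for Bglap2 in acinar cells, and -0.29 for Bglap2 and -1.68 for Bglap in Etv1+ cells. No value could be had for ID cells with up to 10% mitochondrial UMIs, for SD cells with at least 500 genes or for Etv1+ cells without the highest doublet scores, since no cluster took the name. No paired analysis was possible because each group had 1 library.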
